A study of Homo sapiens with 8 samples.

Results

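The complement system was followed here through 9 genes in human lung fibroblasts made senescent with bleomycin, with and without induction of an active YAP transgene. The genes are the central component C3, the proteases C1R, C1S and MASP1, the soluble regulators SERPING1 and CFI, and the membrane regulators CD46, CD55 and CD59. They were taken by name from a table of 54628 genes, and all 9 were found. The list was drawn up with the levels of these genes in the 4 groups already known, so their levels and differences are given as a description, without p-values. Where a difference of any of them is said to be called, or to pass or lose a threshold, this too is description. Nothing is read from such calls.

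Complement is a cascade of secreted proteins that marks cells and particles for clearance. C1r and C1s start the classical pathway and the MASP proteases start the lectin pathway, and both pathways lead to the cleavage of C3, whose fragments coat surfaces, draw in leukocytes and lead on to the membrane attack complex. C1 inhibitor (SERPING1) and factor I (CFI) restrain the cascade in fluid, while CD46, CD55 and CD59 protect the surface of the cell that carries them. The liver makes most plasma complement, and fibroblasts make several components locally.

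Polyadenylated RNA was sequenced from cells of the IMR90-hTERT line, human lung fibroblasts immortalised with telomerase. Every group carried the same pInducer20 construct, in which doxycycline switches on YAP5SA, an active mutant of the Hippo pathway coactivator YAP, with a Flag tag at its N-terminus. The 4 groups hold 2 libraries each: senescent cells with doxycycline, senescent cells without it, proliferating cells with doxycycline and proliferating cells without it. The DNA-breaking drug bleomycin (10 ug/ml, 24 hours) was used to bring on senescence, and these cells were taken 9 days later. Doxycycline was present at 1 ug/ml over the last 11 days. By these times it was added before bleomycin in the senescent group that received it, and senescence came on in its presence. No group received doxycycline without carrying the transgene, and effects of the drug and of YAP5SA cannot be told apart. The labels do not say that the replicates were separate cultures, so errors and p-values measure only the spread between these samples.

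Libraries held between 33627708 and 39692162 counts, and Pearson r of log2 expression across genes was 0.990 to 0.993 between replicates and 0.920 to 0.977 between groups. YAP1 averaged 288 ± 2.83 CPM in senescent cells with doxycycline and 207 ± 23.4 CPM in those without, a log2 change of 0.48 (SE 0.10). CPM are the counts of a gene scaled to 1e+06 counts of a library, and means carry the SD of n = 2 libraries throughout. In proliferating cells YAP1 averaged 214 ± 34.01 CPM with doxycycline and 196 ± 1.71 CPM without it, and the libraries overlapped. These counts can hold reads of the transgene as well as of the endogenous gene. Of 11 fibroblast markers, including COL1A1, DCN and VIM, none was under 1 CPM in any group. Their summed level ran from 12703 to 15154 CPM in senescent cells with doxycycline and from 26281 to 27311 CPM in senescent cells without it. It ran from 18903 to 19162 CPM in proliferating cells with doxycycline and from 27124 to 27319 CPM in those without. COL1A1, COL1A2 and VIM made up most of it. In senescent cells COL1A1 averaged 3763 CPM with doxycycline and 11514 CPM without it, and COL1A2 2279 and 6729 CPM. LUM (203 against 55.5 CPM), DCN, PDGFRA and VIM averaged higher there with doxycycline, and the other fibroblast markers averaged lower. All 10 hepatocyte markers stayed under 1 CPM in every group, with sums of at most 0.840 CPM, and TTR had no count at all. Of 9 macrophage and leukocyte markers 8 stayed under 1 CPM, PTPRC among them, and CD68 made up nearly all of the sum. That sum was 64.3 to 65.1 CPM in senescent cells with doxycycline and 124 to 169.7 CPM in senescent cells without it, against 52.8 to 55.3 CPM in proliferating cells with doxycycline and 69.6 to 72.8 CPM in proliferating cells without it. The sum of 8 epithelial markers, carried by KRT8 and KRT18, was 581 to 632 CPM in senescent cells with doxycycline and 119.7 to 126 CPM in senescent cells without it, against 479 to 486 CPM in proliferating cells with doxycycline and 207 CPM in both proliferating libraries without it. KRT8, KRT18, KRT14 and CDH1 were all higher on average with doxycycline in both states, but KRT14 and CDH1 stayed at or below 1.22 CPM in every library. EPCAM reached no more than 0.0608 CPM in a library, and KRT5, SFTPC and SCGB1A1 had at most 3 counts in a library. The sum of 7 endothelial markers, carried by TEK, was 97.1 to 107 CPM in senescent cells with doxycycline and 135 to 155 CPM in senescent cells without it, against 45.7 to 50.7 CPM in proliferating cells with doxycycline and 69.1 to 70.5 CPM in proliferating cells without it. The part of these markers in the complement results was not tested.

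C3, the component on which all pathways converge, had the widest range of the genes described here. It stood at 27.8 and 30.5 CPM in senescent cells with doxycycline and at 261 and 249 CPM in senescent cells without it. In proliferating cells it stood at 0.529 and 0.631 CPM with doxycycline and at 2.66 and 3.15 CPM without it. No library of any group overlapped with one of another, and the lowest senescent library with doxycycline lay above both proliferating groups. Without doxycycline, C3 was 87.7-fold higher in senescent than in proliferating cells (log2 change 6.46, SE 0.11), the gene ranked 75 of 17155 by that log2 change. Between the doxycycline groups it was 49.6-fold higher in senescent cells (log2 change 5.63, SE 0.14). Doxycycline went with an 8.75-fold lower level in senescent cells (log2 change -3.13, SE 0.09) and a 4.95-fold lower level in proliferating cells (log2 change -2.31, SE 0.19). By that measure C3 ranked 37 from the bottom in senescent cells and 60 from the bottom in proliferating cells. In these bulk samples fewer cells with a transcript and less of it per cell cannot be told apart.

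**Figure D1:**
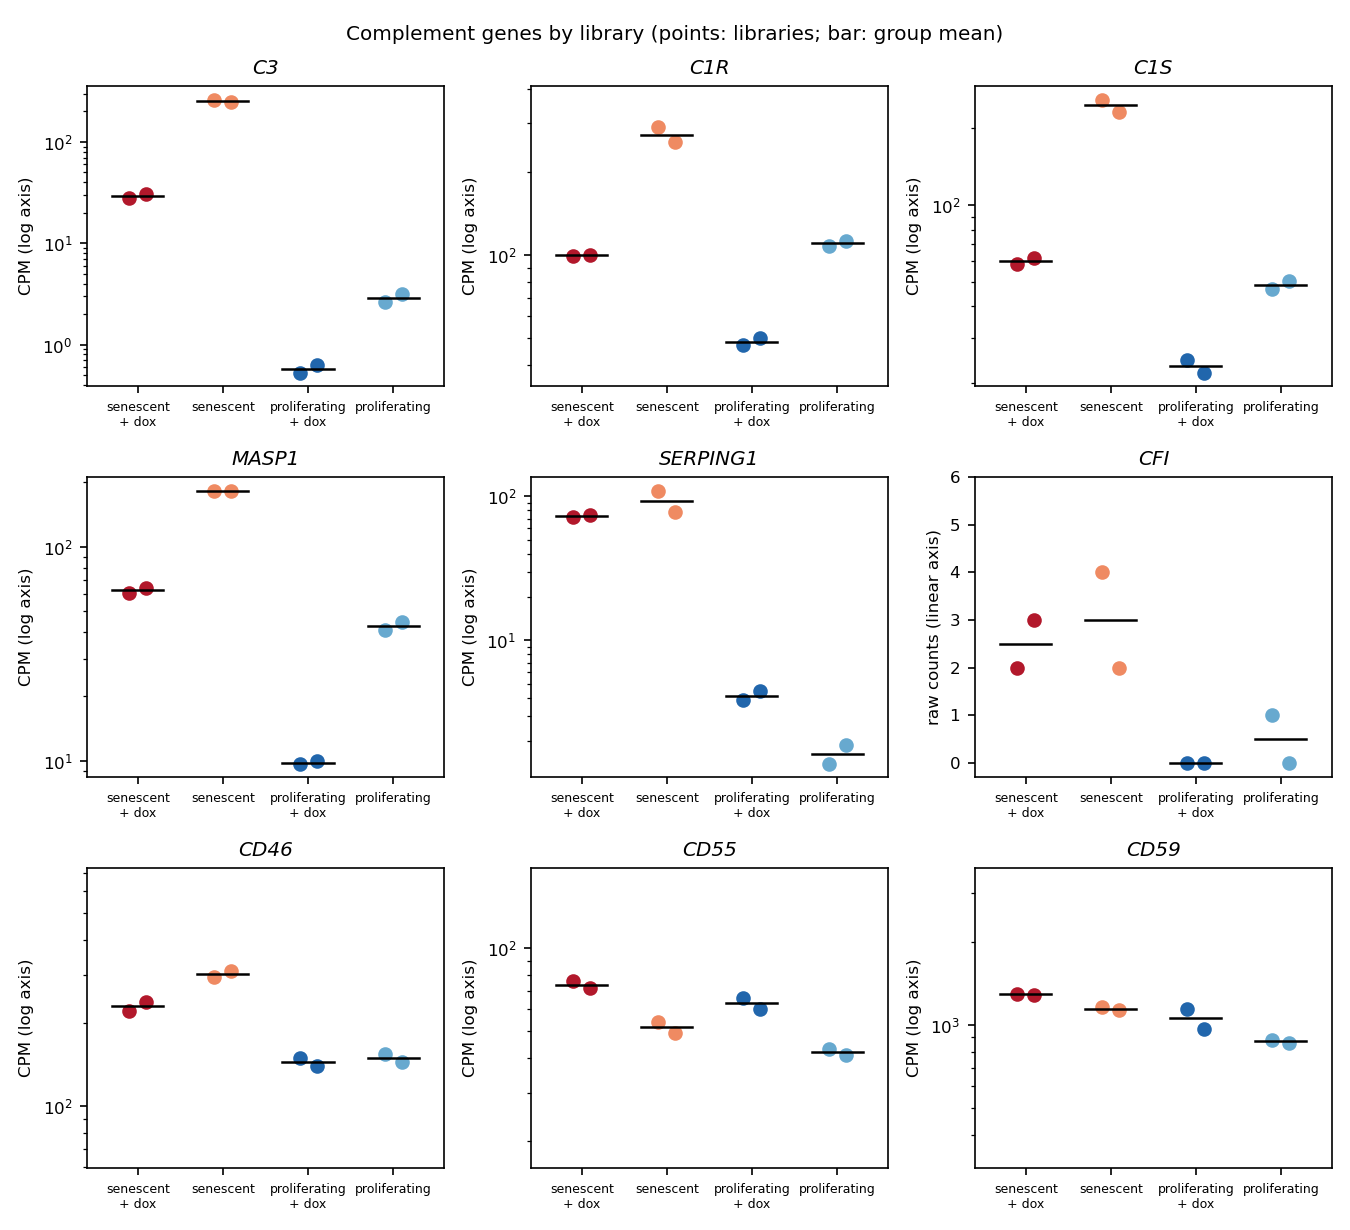
Level of each gene by library in the 4 groups, as CPM on log axes (CFI as raw counts on a linear axis); points are libraries, bars are group means, and dox stands for doxycycline. C3, C1R, C1S and MASP1 are lower with doxycycline in both states, and CD55 is higher with it in both.

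C1R and C1S, the paired serine proteases of the C1 complex, had the same order of groups apart from the middle of the scale. C1R had 99.6 and 100.4 CPM in senescent cells with doxycycline and 289.98 and 256 CPM in senescent cells without it. In proliferating cells C1R had 47.3 and 49.9 CPM with doxycycline and 108 and 112 CPM without it. The senescent libraries with doxycycline thus lay just below the proliferating libraries without it, while the senescent libraries without it lay above all others. For C1S the values were 58.9 and 61.7 CPM in senescent cells with doxycycline and 259 and 232 CPM in senescent cells without it. C1S had 24.6 and 22.0 CPM in proliferating cells with doxycycline and 47.0 and 50.3 CPM in proliferating cells without it. Here the senescent libraries with doxycycline stayed above both proliferating groups. C1R was 2.48-fold higher in senescent than in proliferating cells without doxycycline (log2 change 1.31, SE 0.08), and C1S was 5.05-fold higher (log2 change 2.33, SE 0.09). With doxycycline the senescent excess was 2.06-fold for C1R and 2.59-fold for C1S. With doxycycline C1R was 2.73-fold lower in senescent cells and 2.27-fold lower in proliferating cells. C1S was 4.07-fold lower with it in senescent cells and 2.09-fold lower in proliferating cells.

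The balance of the 2 proteases moved with the groups. For each C1R count there were 0.591 and 0.615 C1S counts in senescent cells with doxycycline and 0.892 and 0.905 in senescent cells without it. In proliferating cells there were 0.521 and 0.440 C1S counts with doxycycline and 0.434 and 0.448 without it. The senescent groups thus had more C1S relative to C1R than the proliferating groups, without overlap. On hg38, C1S (chromosome 12, 7060718 to 7071032, plus strand) and C1R (chromosome 12, 7080219 to 7092445, minus strand) face each other with their 3′ ends, 9186 bases apart. C1RL, a related protease gene, lies on the same strand 2108 bases upstream of C1R.

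Promoter windows of the 250 bases before each start, from RefSeq on GRCh38.p14, were found for 6 of the 9 genes, 11 windows in all. C3, C1S and SERPING1 had no entry. Windows were searched on both strands for GGAATG (bound by TEAD factors, through which YAP acts), GAAA repeated after 2 bases of any kind (interferon-stimulated response element), TTCNNNGAA (STAT site), TGANTCA (AP-1), TTGCNNAA (C/EBP) and an NF-kappaB motif. The first C1R window (chr12:7092446-7092695, minus strand) is printed because it alone held GGAATG, in 3 copies, at 92 to 87, 80 to 75 and 70 to 65 bases before the start. It also held 1 C/EBP motif at 106 to 99 bases. MASP1 (chr3:187291738-187291987, minus strand) and CD55 (chr1:207321428-207321677, plus strand) are printed beside it as a gene lower and a gene higher with doxycycline in both states, and neither window held any of the 6 motifs. Capitals mark the motif matches, and a copy on the opposite strand appears as CATTCC or, for C/EBP, as TTATGCAA.
C1R: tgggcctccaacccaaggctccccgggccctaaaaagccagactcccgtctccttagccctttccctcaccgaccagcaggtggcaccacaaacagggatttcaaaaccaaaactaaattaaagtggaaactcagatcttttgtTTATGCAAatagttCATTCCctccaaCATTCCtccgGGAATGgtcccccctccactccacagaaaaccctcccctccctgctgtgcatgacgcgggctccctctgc
MASP1: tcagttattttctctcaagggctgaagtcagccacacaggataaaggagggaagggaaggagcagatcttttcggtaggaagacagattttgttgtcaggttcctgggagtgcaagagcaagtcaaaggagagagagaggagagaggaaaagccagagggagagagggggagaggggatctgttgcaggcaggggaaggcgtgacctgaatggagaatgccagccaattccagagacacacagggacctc
CD55: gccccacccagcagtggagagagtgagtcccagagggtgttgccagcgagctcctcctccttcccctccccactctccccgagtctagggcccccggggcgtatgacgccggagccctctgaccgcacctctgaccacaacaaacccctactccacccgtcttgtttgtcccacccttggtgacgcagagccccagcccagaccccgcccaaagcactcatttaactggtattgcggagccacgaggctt
Of 35116 promoter windows of this length, 11.89% held GGAATG at least once and 0.08258% held it at least 3 times, while 9.05% held the C/EBP motif. The shares were 3.021% for the interferon-stimulated response element, 6.567% for the STAT site, 6.573% for AP-1 and 9.961% for NF-kappaB. A second C1R window (chr12:7091894-7092143) held 1 STAT site and 1 C/EBP motif, and the windows of CD46 and CFI held none of the 6. Of the 4 CD59 windows, which overlap in pairs, 2 shared 1 STAT site, 1 held 2 C/EBP motifs and 1 held 2 AP-1 motifs. These matches describe letters in the windows and do not show binding. The first C1R window was picked for its copies after all 11 were searched, so the share of windows with 3 copies is no test of it.

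MASP1 encodes a protease of the lectin pathway, which is started by sugar-binding proteins on foreign or altered surfaces. The gene also gives rise to the splice products MASP-3 and MAp44, and a count per gene sums them. MASP1 had 60.8 and 64.3 CPM in senescent cells with doxycycline and 182 and 183 CPM in senescent cells without it. It had 9.70 and 9.95 CPM in proliferating cells with doxycycline and 40.9 and 44.6 CPM in proliferating cells without it. All 4 groups were separate, and the senescent libraries with doxycycline again lay above both proliferating groups. The level was 4.28-fold higher in senescent than in proliferating cells without doxycycline and 6.36-fold higher with it (log2 change 2.67). Doxycycline went with a 2.92-fold lower level in senescent cells (log2 change -1.55) and a 4.35-fold lower level in proliferating cells (log2 change -2.12). MASP1 was thus reduced more in proliferating than in senescent cells, by 0.57 on the log2 scale (SE 0.11), whereas C3 and C1S were reduced more in senescent cells, with differences of -0.82 (SE 0.23) and -0.96 (SE 0.12). The call of the difference for C3 was lost in 4 of 14 alternatives, with values of -0.75 to -0.64, under total counts and without the first proliferating library, the second proliferating library with doxycycline or the first senescent library with doxycycline. For C1R the difference was -0.27 (SE 0.11) and was not called. It ran from -0.36 without the second senescent library, the 1 alternative of 14 in which it was called, to -0.087 with total counts. MASP1 lies on chromosome 3 from 187217282 to 187291737, and 79 bases of its exons overlap an antisense gene.

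SERPING1, the inhibitor of C1r, C1s and the MASP proteases, departed from the proteases it blocks. It had 72.1 and 74.1 CPM in senescent cells with doxycycline and 109 and 77.2 CPM in senescent cells without it. Proliferating cells had 3.85 and 4.42 CPM with doxycycline and 1.39 and 1.88 CPM without it. The senescent libraries lay far above the proliferating ones, and the proliferating libraries with doxycycline lay above those without. SERPING1 was 57.0-fold higher in senescent than in proliferating cells without doxycycline (log2 change 5.83, SE 0.20) and 17.6-fold higher with it (log2 change 4.14, SE 0.18). With doxycycline it was 2.54-fold higher in proliferating cells (log2 change 1.34, SE 0.24), a difference under the calling threshold when the second proliferating library with doxycycline was left out (log2 change 1.24). In senescent cells the log2 change with doxycycline was -0.35 (SE 0.14). It was -0.086 without the first senescent library and -0.59 without the second, and the 2 senescent libraries themselves lay far apart (93.2 ± 22.7 CPM). That change passed the calling threshold in 5 of 15 alternative settings, among them DESeq2 (-0.36). The doxycycline effect differed between the states by -1.70 on the log2 scale (SE 0.28). SERPING1 lies on chromosome 11 from 57597685 to 57614848.

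CFI, which encodes the protease that inactivates C3b and C4b, was near the limit of detection and did not pass the count filter. Its counts were 2 and 3 in senescent libraries with doxycycline and 4 and 2 in senescent libraries without it, against 0 and 0 in proliferating libraries with doxycycline and 1 and 0 in proliferating libraries without it. A count of 0 in both libraries allows up to 0.0399 CPM in proliferating cells with doxycycline, taking 3 counts over the group. Without doxycycline the ratio of senescent to proliferating counts per depth was 7.07, with a 95% interval of 0.858 to 325 that covers counting error only. A difference within that comparison was therefore not detectable at this depth. With doxycycline the counts were 5 in senescent against 0 in proliferating cells, and the interval of that ratio began at 0.918. Every senescent library held more counts than any proliferating library, and this was not tested. Of the exon length of CFI (chromosome 4, 109730982 to 109801999), 66.2% is shared with another protein-coding locus on the same strand, AC126283.2, so its count is uncertain.

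CD46, a surface cofactor for factor I, followed senescence more than doxycycline. It had 221 and 239 CPM in senescent cells with doxycycline and 293 and 310 CPM in senescent cells without it. In proliferating cells it had 149 and 140.3 CPM with doxycycline and 154 and 145 CPM without it. The proliferating groups overlapped, while both senescent groups lay above them and apart from each other. CD46 was 2.02-fold higher in senescent than in proliferating cells without doxycycline (log2 change 1.01) and 1.59-fold higher with it (log2 change 0.67). With doxycycline it was 1.31-fold lower in senescent cells (log2 change -0.39), or -0.22 on the log2 scale when libraries were scaled by total counts alone. In proliferating cells the log2 change was -0.047 (SE 0.08).

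CD55, which speeds the decay of C3 and C5 convertases, went the other way with doxycycline. It had 75.9 and 71.8 CPM in senescent cells with doxycycline and 54.0 and 49.4 CPM in senescent cells without it. It had 66.1 and 60.1 CPM in proliferating cells with doxycycline and 43.0 and 41.0 CPM in proliferating cells without it. Both groups with doxycycline lay above both groups without it. The level was 1.43-fold higher with doxycycline in senescent cells (log2 change 0.51, SE 0.08) and higher by 0.59 on the log2 scale in proliferating cells (SE 0.08), and the effects differed by -0.071 (SE 0.12). The senescent excess was small, with log2 changes of 0.30 without doxycycline and 0.23 with it, and its call was lost in 3 and in 6 of 15 alternative settings. Without doxycycline it stood at 0.12 when scaled by total counts, 0.26 without the second proliferating library and 0.24 without the first senescent library. With doxycycline it stood between 0.15 and 0.26 in the 6 settings, which included leaving out either proliferating library without doxycycline, either senescent library with doxycycline or the second proliferating library with doxycycline.

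CD59, which blocks assembly of the membrane attack complex, was the most abundant of these transcripts. It had 1296 and 1286 CPM in senescent cells with doxycycline and 1156 and 1129 CPM in senescent cells without it. It had 1142 and 967 CPM in proliferating cells with doxycycline and 884 and 862 CPM in proliferating cells without it. The proliferating libraries with doxycycline spread most widely, and 1 of them reached the range of senescent cells without the drug. CD59 was higher in senescent than in proliferating cells by 0.39 on the log2 scale without doxycycline (SE 0.09) and by 0.29 with it. The change with doxycycline was 0.18 in senescent cells, where it was not called, and 0.27 in proliferating cells. With total counts the change in senescent cells was 0.35 (SE 0.08) and was called. The call in proliferating cells was lost in 7 of 15 alternative settings, with a change of 0.15 without the first proliferating library with doxycycline. Leaving out either proliferating library without doxycycline or either senescent library with it also ended that call, with changes of 0.26 to 0.29. That of the senescent excess under doxycycline was lost in 3, with a change of 0.17 without the second proliferating library with doxycycline and 0.29 without either senescent library with doxycycline. Of the CD59 exons, 318 bases (3.87%) are shared with a locus on the same strand, AL049629.2. CD55 (207321678 to 207360966) and CD46 (207752038 to 207795516) lie 391071 bases apart on chromosome 1, and CD59 lies on chromosome 11 (33703010 to 33736479).

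**Figure D2:**
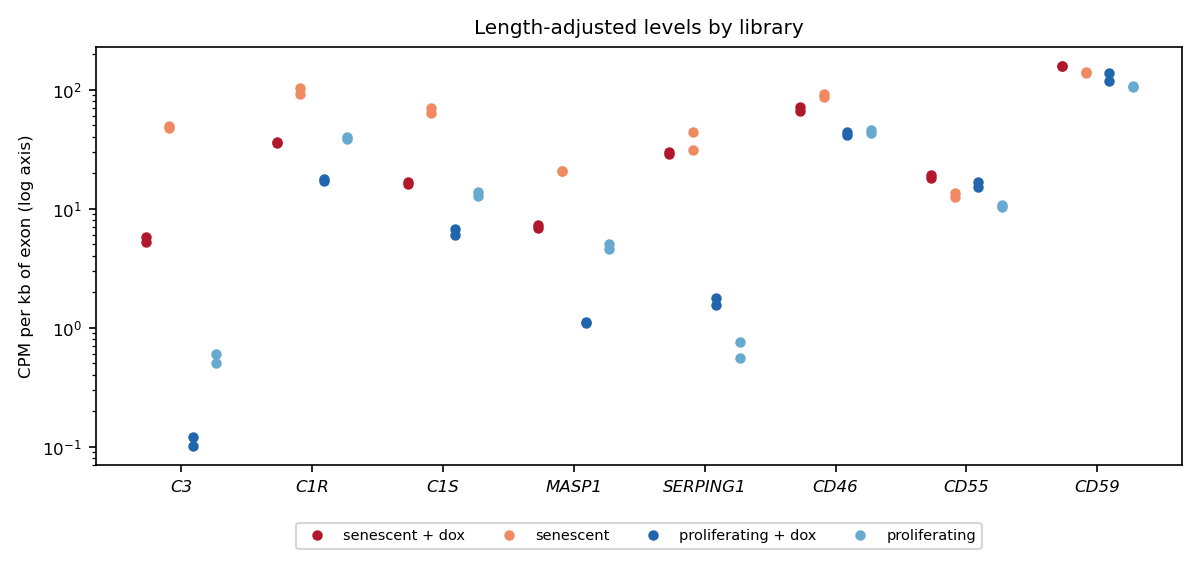
Level of 8 genes per library, as CPM per kilobase of exon on a log axis, coloured by group; each point is 1 library. In every group CD59 is highest, and C3 sits in the middle of the scale in senescent cells without doxycycline and has the lowest mean of the 8 in both proliferating groups.

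Levels were compared between genes only after division by exon length. In senescent cells with doxycycline the order in CPM per kilobase was CD59 (157), CD46 (68.2), C1R (35.8), SERPING1 (29.4), CD55 (18.5), C1S (16.4), MASP1 (7.03) and C3 (5.55), and no neighbours overlapped. In senescent cells without doxycycline the order was CD59 (139), C1R (97.9), CD46 (89.5), C1S (66.9), C3 (48.5), SERPING1 (37.4), MASP1 (20.6) and CD55 (13.0). There no neighbours overlapped, although the lowest C1R library, at 91.93, lay just above the highest CD46 library, at 91.87. In proliferating cells with doxycycline the order was CD59 (128), CD46 (42.9), C1R (17.4), CD55 (15.8), C1S (6.35), SERPING1 (1.66), MASP1 (1.10) and C3 (0.110), with no overlap between neighbours. Proliferating cells without doxycycline had CD59 (106), CD46 (44.3), C1R (39.5), C1S (13.3), CD55 (10.5), MASP1 (4.81), SERPING1 (0.656) and C3 (0.552), and the libraries of SERPING1 and C3 overlapped. CFI was the lowest in each group, at no more than 0.0366 CPM per kilobase on average. The surface regulators CD59 and CD46 thus held high ranks in every group, whereas C3 had the lowest mean of the 8 in each group but the senescent cells without doxycycline.

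Across 17155 genes that passed the count filter, edgeR's quasi-likelihood test at a Benjamini-Hochberg adjusted p of 0.05 called 59.2% in senescent against proliferating cells without doxycycline, with 29.8% higher and 29.4% lower. All 8 complement genes that passed were called higher there. With doxycycline 55.5% of all genes were called, 26.8% higher and 28.7% lower, and the same 8 of 8 were called higher. For doxycycline in senescent cells 46.3% were called, and 5 of the 8 genes were called lower (C3, C1R, C1S, MASP1 and CD46) and 1 higher (CD55), beside 23.8% lower and 22.6% higher over all genes. For doxycycline in proliferating cells 23.0% were called, and 4 of the 8 were called lower (C3, C1R, C1S and MASP1) and 3 higher (SERPING1, CD55 and CD59), beside 10.4% lower and 12.6% higher over all genes. For the difference of the doxycycline effects between the states 19.8% were called, and 4 of the 8 were called lower (C3, C1S, SERPING1 and CD46) and 1 higher (MASP1), beside 11.8% lower and 8.07% higher over all genes. Of these 5 calls, that for C3 was lost in 4 of 14 alternatives and that for CD46 in 9 of 14. The number called fell to 3 with total counts, and to 3 without the first proliferating library or the first senescent library with doxycycline. The members were chosen on these values, and nothing is read from their counts. Their median log2 changes were 1.70, 1.21, -0.92, -0.56 and -0.31 in the order of these comparisons, against 0.01, -0.01, 0.00, 0.00 and -0.03 over all genes. Scaling by total counts in place of TMM factors shifted the log2 changes of all genes by a median of -0.18 for senescence without doxycycline and of 0.17 for doxycycline in senescent cells. It also turned the log2 difference of the doxycycline effects between the states to 0.11 for CD55 and 0.086 for CD59, against -0.071 and -0.096 with TMM factors.

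**Figure D3:**
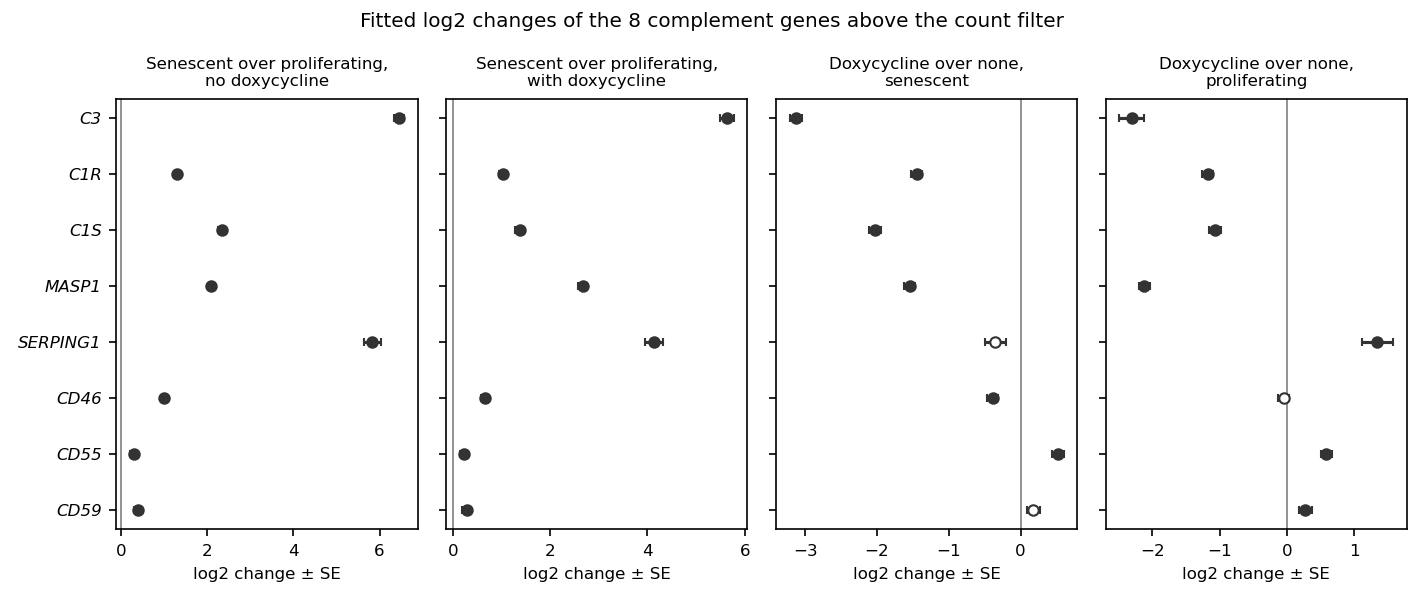
Fitted log2 changes with SE of 8 genes in the 4 comparisons named above the panels, whose x axes differ in range; filled points were called at an adjusted p of 0.05 and open points were not. All 8 lie right of 0 in both senescence comparisons, and C3 lies farthest from 0 in each panel. The genes were chosen on these values, and nothing is read from their calls.

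**Figure D4:**
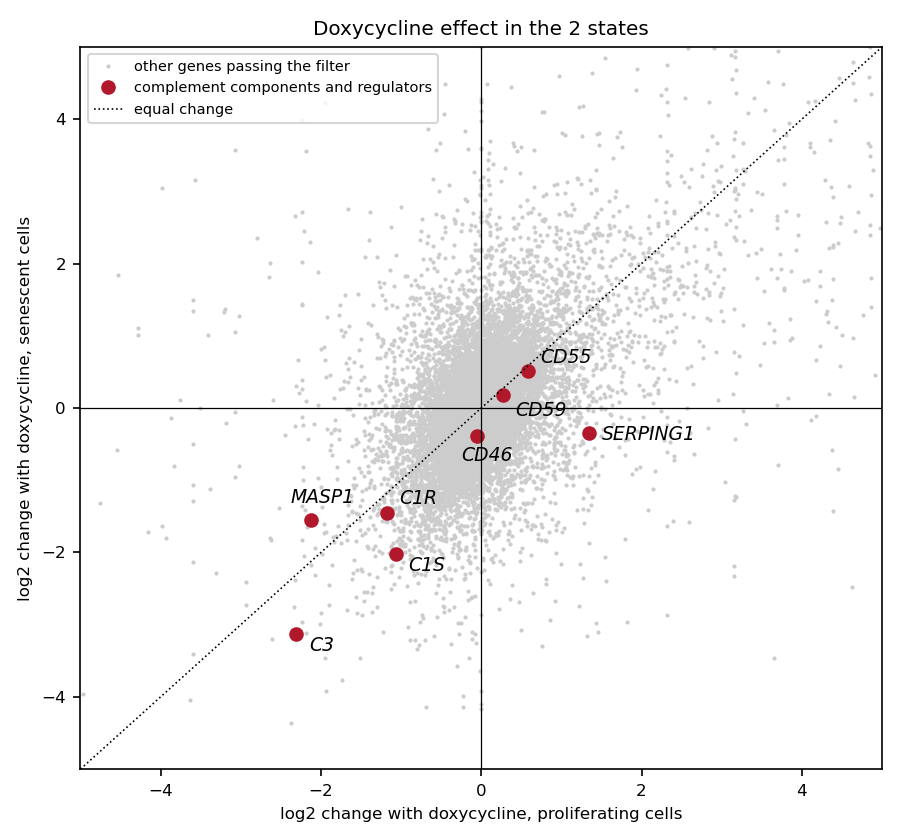
Log2 change with doxycycline in senescent cells (y axis) against that in proliferating cells (x axis), 1 point per gene that passed the filter, with the complement genes in red and a dotted line of equal change; 171 genes lie outside the axes. C3 and C1S lie below the line and MASP1 above it, and SERPING1 lies at 1.34 on the x axis and -0.35 on the y axis.

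Beyond these 9 genes, 51 further complement genes were looked up: 26 recognition molecules and components, 17 regulators and 8 receptors. Of the 51, 17 passed the count filter. The other 34 stayed at or below a mean of 0.268 CPM in every group, and 9 of them had no count in any library. The genes of C1q, which carries C1r and C1s to their targets, had at most 2 counts in a library. CFB had no count, and C2, C4A and C4B had 3, 15 and 5 counts over all 8 libraries. These 4 genes lie in the major histocompatibility complex, where 77.4% of coding genes stayed under 1 CPM in every library, against 37.9% elsewhere. No source used here says how reads were assigned there, and nothing is read from their low counts. C4A and C4B are also near-identical copies. The adjusted p-values below are those of edgeR's quasi-likelihood test over all genes.

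In senescent against proliferating cells without doxycycline, 4 of the 17 rose and 3 fell, beside 29.8% of all genes called higher and 29.4% lower. Their median log2 change was 0.49, beside 0.01 over all genes. Of the components, C7, which anchors the growing membrane attack complex, rose to 50.1 and 56.3 CPM in senescent cells, against 6.88 and 7.39 CPM in proliferating cells (log2 change 2.90, SE 0.11, adjusted p = 4.97e-12). C1RL rose 2.08-fold and PTX3, a secreted pattern recognition molecule that binds C1q, rose 1.40-fold. C5, whose cleavage starts the attack complex, fell 3.24-fold, at 1.15 and 1.70 CPM in senescent cells and 4.51 and 4.71 CPM in proliferating cells. The collectins COLEC12 and COLEC10 fell 2.05-fold and 1.58-fold. Of the regulators, CLU, an inhibitor of the attack complex, had 457 and 396 CPM in senescent cells and 387 and 391 CPM in proliferating cells and was not called. C5AR1, a receptor of the C5a fragment, was called higher at 0.941 CPM in senescent cells against 0.471 CPM in proliferating cells (adjusted p = 0.0270). Its call was lost in 4 of 14 alternatives, those with total counts (adjusted p = 0.0638) or DESeq2 (0.0999) and those without the first proliferating library (0.190) or the first senescent library (0.179).

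With doxycycline, 4 rose and 5 fell in senescent against proliferating cells, beside 26.8% of all genes called higher and 28.7% lower. The median log2 change was -0.23, beside -0.01 over all genes. C7 and C1RL were again higher, by 6.58-fold and 2.18-fold. COLEC12 had 1.32 and 2.097 CPM in senescent cells with doxycycline against 13.7 and 17.3 CPM in proliferating cells with it (9.13-fold lower, adjusted p = 1.18e-09). COLEC10 was 3.98-fold lower, C5 4.42-fold lower and CLU 1.34-fold lower. CSMD1, a membrane protein known to inhibit complement, had 39 counts in senescent cells with doxycycline and none in proliferating cells with it, at least 13.0-fold higher when 3 counts over the group are taken as the floor. It is 1 of the 4 that rose, but it passed the count filter only through senescent cells with doxycycline, and nothing is read from its calls. C5AR1 was called higher at an adjusted p of 0.0238, lost in 3 of 14 alternatives: DESeq2 (0.0860), without the first proliferating library with doxycycline (0.130) and without the second senescent library with doxycycline (0.124). The integrin chain ITGB2 was called lower at an adjusted p of 0.0440, which 7 of 15 alternatives raised above 0.05, up to 0.188 without the first senescent library with doxycycline; the other 3 libraries compared also ended the call when left out (0.0893 to 0.135).

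**Figure D5:**
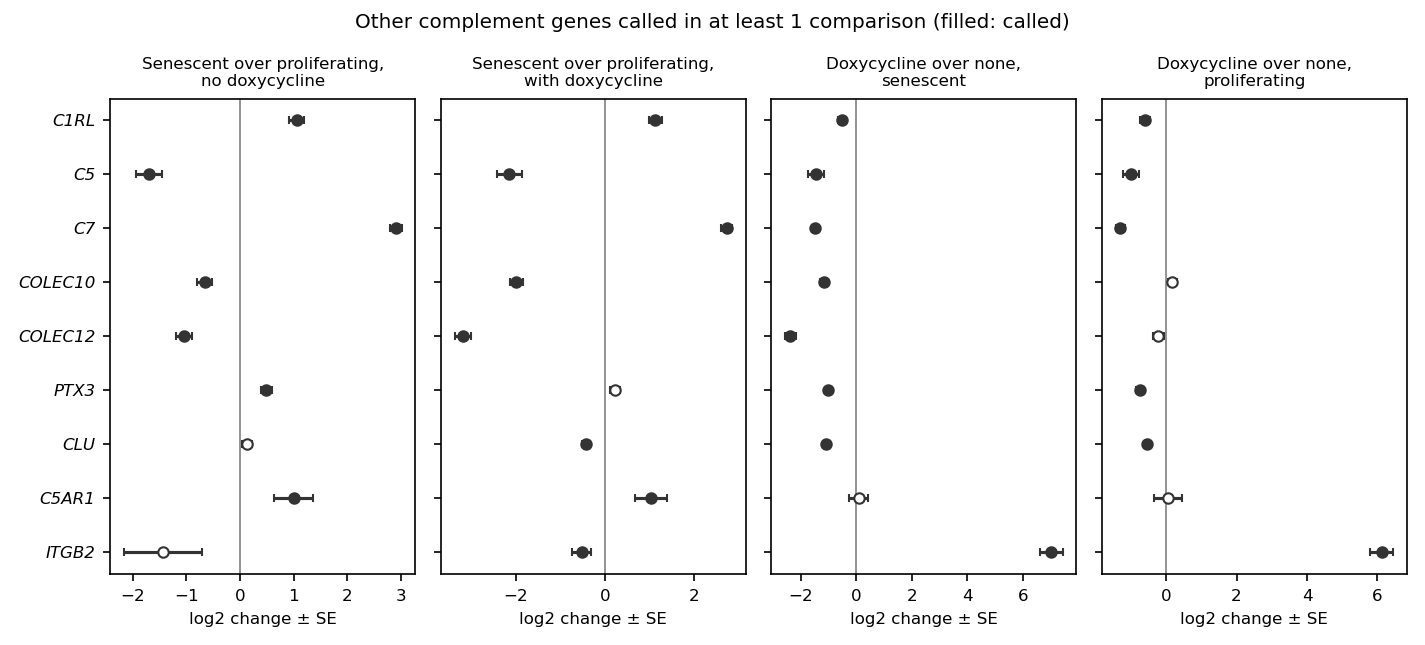
Fitted log2 changes with SE of 9 further complement genes called in at least 1 of the 4 comparisons named above the panels, whose x axes differ in range; filled points were called and open points were not, and CSMD1 is left out because it had no count in the proliferating groups. C7, PTX3, CLU, C5, C1RL and COLEC12 lie left of 0 in both doxycycline panels, COLEC12 without a call in proliferating cells. ITGB2 lies far to the right in both.

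In senescent cells 7 of the 17 fell and 2 rose with doxycycline, beside 23.8% of all genes called lower and 22.6% higher. The median log2 change was -0.77, beside 0.00 over all genes. C7 fell to 17.7 and 20.5 CPM in senescent cells with doxycycline, against 50.1 and 56.3 CPM in those without (2.79-fold lower, adjusted p = 1.62e-08). CLU fell 2.13-fold to 205 and 195 CPM with doxycycline, against 457 and 396 CPM without it. PTX3 fell 2.03-fold, C5 2.72-fold, COLEC10 2.23-fold and COLEC12 5.17-fold. C1RL fell 1.44-fold (adjusted p = 0.00542), a call lost with total counts (0.0553) and without the second senescent library with doxycycline (0.0817). The 2 genes that rose, ITGB2 and CSMD1, were near the limit of detection without doxycycline and passed the count filter only through groups with it, so their counts are given as a description. ITGB2, the common chain of complement receptors 3 and 4, had 235 and 223 counts in senescent libraries with doxycycline and 3 and 0 counts in those without, a ratio per depth of 139.6 (95% interval 47.5 to 679). Its partners ITGAM and ITGAX did not pass the count filter. CSMD1 had 39 counts over senescent libraries with doxycycline and 4 over those without, a ratio of 8.92 (95% interval 3.22 to 34.3). Nothing is read from its call, which did not hold without the first senescent library with doxycycline.

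In proliferating cells 5 of the 17 fell and 1 rose with doxycycline, beside 10.4% of all genes called lower and 12.6% higher. The median log2 change was -0.16 with CSMD1 left out, as it had no count in these groups, beside 0.00 over all genes. C7 fell 2.46-fold to 2.82 and 2.96 CPM with doxycycline, against 6.88 and 7.39 CPM without it. PTX3 fell 1.68-fold and CLU 1.45-fold. C5 fell with an adjusted p of 0.00510, lost without the second proliferating library (0.0512), and C1RL fell 1.51-fold, lost without the first proliferating library (0.0647) or the second proliferating library with doxycycline (0.0629). The gene that rose, ITGB2, had 296 and 367 counts with doxycycline against 4 and 6 counts without it (log2 change 6.12, SE 0.33). As it passed the count filter only through groups with doxycycline, its rise is given as a description. COLEC10 stood at 17.1 ± 1.96 CPM with doxycycline and 15.1 ± 1.32 CPM without it, and COLEC12 at 15.5 ± 2.60 CPM with doxycycline and 18.1 ± 1.59 CPM without it, and neither was called. Both collectins were reduced more with doxycycline in senescent than in proliferating cells by a test of the difference itself (COLEC12 log2 difference -2.15, SE 0.24, adjusted p = 2.59e-05; COLEC10 -1.34, SE 0.20, adjusted p = 0.000331). The same held for CLU (-0.56, adjusted p = 0.00702). These were the 3 calls among the 17 genes, all lower, beside 11.8% of all genes called lower and 8.07% higher. The median difference was -0.22 with CSMD1 again left out.

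Counted by role, 6 of the 9 recognition molecules and components above the filter fell with doxycycline in senescent cells, and of 5 regulators 1 fell and 1, CSMD1, rose. Of 3 receptors above the filter 1, ITGB2, rose. Over all genes 23.8% were called lower and 22.6% higher there. In proliferating cells 4 of the 9 components and 1 of the 5 regulators fell with doxycycline and 1 of the 3 receptors, again ITGB2, rose, beside 10.4% lower and 12.6% higher over all genes. CSMD1 and ITGB2 passed the count filter only through groups with doxycycline, and nothing is read from their rises. C3AR1, the receptor of the C3a fragment, stayed at or below 0.760 CPM in every library and was not called in any comparison.

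Over the 8 libraries, Pearson r of log2 CPM was 0.980 between C1R and C1S, 0.967 between C1R and MASP1, 0.971 between C3 and CD46 and 0.954 between C3 and C1S. For the inhibitor SERPING1 it was 0.592 with C1R, 0.709 with C1S and 0.699 with MASP1. It was 0.843 between CD55 and CD59 and -0.371 between C1R and CD55. These r values share the same libraries and 4 groups and are a description. Among 1842 genes whose log2 CPM averaged 3 or more with an SD of 0.5 or more, the 3 most like each complement gene over the 8 libraries had r of 0.975 to 0.999. Nearest to C3 were CHRNA1, CDCP1 and MAML3, and nearest to C1R were PRSS12, BGN and IGFBP5. CHRNA1, for example, averaged 37.3 CPM in senescent cells with doxycycline and 98.0 CPM in senescent cells without it, against 8.33 CPM in proliferating cells with doxycycline and 15.3 CPM in those without. CHN1, IFI35 and PANX1 were nearest to C1S, HSD17B2, SIRPA and GPR37 to MASP1, and CALCOCO1, YIPF6 and TNFAIP3 to SERPING1. CD46 was most like HLA-C, APP and APLN, CD55 most like SERPINB7, HBEGF and MOK, and CD59 most like IFT20, MAP1LC3B and CYB5R1. CD46, CD55 and CD59 themselves had SDs of 0.48, 0.33 and 0.23, so the limit of 0.5 left only genes that varied more than they did. HBEGF shared the doxycycline pattern of CD55, with 63.1 CPM in senescent cells with doxycycline and 16.9 CPM without it. In proliferating cells HBEGF averaged 39.5 CPM with doxycycline and 5.43 CPM without it.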

How the data were processed

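The deposited values are raw counts per gene made by the authors, 1 column for each of 8 libraries. Per the labels' protocols, RNA with an integrity number above 7.0 was made into stranded TruSeq mRNA libraries and sequenced on a NovaSeq. Per the submitters' processing notes the tools were Trimmomatic 0.36, HISAT2 2.1.0 and featureCounts 1.6.3 on hg38; the settings, the annotation and strandedness were not given in the sources used here. Overlapping and near-identical genes are therefore uncertain. Groups follow the labels.

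Counts were scaled with TMM factors (CPM use them) and the 17155 genes passing filterByExpr were fitted with edgeR 4.0.16's robust quasi-likelihood model in R 4.3.3, with 4 groups and 4 residual degrees of freedom. Genes were called at a Benjamini-Hochberg adjusted p of 0.05, two-sided. The model was also run on simulated counts with far fewer changed genes than were called here, and nothing is read from that run. Log2 changes are fitted, and each SE is the absolute log2 change divided by the square root of the F statistic of edgeR's test. Means carry SD with n = 2, and 2 was the prior count for log2 CPM. Floors take 3 counts over a group, and intervals cover counting error only. Exon lengths are the union of GENCODE exons. Genes and lists were chosen with earlier results of these data known. Named are the 9 genes, any complement gene of a described role (1 is not reported here), and for each of the 9 the 3 with the highest r. Alternatives were DESeq2 1.42.0, its size factors in edgeR, total counts, no low-count filter, a log2 CPM averaging 1 or more, a fit of the 4 libraries compared alone, a replicate block and each library left out. Plots used matplotlib 3.10.9.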

Additional observations from a re-analysis of the deposited data

Results flagged for a closer look

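For 8 of the genes described, the difference of the doxycycline effects between the 2 states passed the calling threshold of edgeR's test. They were 5 of the 8 chosen genes above the filter and 3 of the 17 further complement genes, beside 19.8% called over all genes. The difference is given here as the log2 change in senescent cells minus that in proliferating cells. The 9 genes were chosen on these values, so nothing is read from their calls. As a description, the differences called among them were -0.82 for C3, -0.96 for C1S, -1.70 for SERPING1 and -0.34 for CD46, and 0.57 for MASP1. The call for C3 was lost in 4 of 14 alternatives, with -0.64 under total counts, -0.71 without the first proliferating library, -0.69 without the second proliferating library with doxycycline and -0.75 without the first senescent library with doxycycline. The call for CD46 was lost in 9 of 14, where its value lay between -0.41 and -0.16; leaving out either proliferating library, either senescent library with doxycycline, the first proliferating library with doxycycline or the second senescent library each ended it. Among the further complement genes the differences were -2.15 for COLEC12, -1.34 for COLEC10 and -0.56 for CLU. With 2 libraries per group, single libraries were not tested as outliers.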

How the results depend on the processing

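Of the log2 changes of the 8 complement genes over all alternatives, 548 kept their direction and their side of the threshold, 33 lost the call, 7 gained it and 4 turned in sign. The 4 were small: CD55 (0.11) and CD59 (0.086) in the difference of the doxycycline effects under total counts, CD59 in the same difference without the first proliferating library with doxycycline (0.019, range -0.22 to 0.019 over libraries left out), and CD46 with doxycycline in proliferating cells without the first proliferating library (0.000739, range -0.090 to 0.000739). Of the further complement genes' changes 483 kept their call and 20 lost it.

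For the difference of the doxycycline effects, 3 of the 8 were called with total counts, and 3 to 5 with a library left out. Leaving out 1 library gave 2012 to 4155 genes called for doxycycline in proliferating cells and 1852 to 3903 for the difference, with the low counts without the first proliferating library (2099 and 1954), without the second (2012 and 1852) and, for the difference, without the first senescent library with doxycycline (2023). Other comparisons stayed within 1.5 times of 10155, 9519 and 7950 genes. Total counts changed the share of higher among called genes to 37.1% for senescence without doxycycline (main 50.3%), 69.3% for doxycycline in senescent cells (48.7%) and 70.4% for the difference (40.6%).

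Titles and descriptions of the samples carry different replicate numbers, and the title's alone were used for pairing. Residuals of libraries with the same title number correlated at -0.0121 to 0.0402, and these numbers were not taken to pair the samples. A replicate block by them gave 10345 and 9745 genes called for senescence without and with doxycycline, 8281 and 4357 for doxycycline in senescent and proliferating cells and 3878 for the difference, and it changed no call among the 8 complement genes. Replicates differed by more than counting error (chi-square per degree of freedom 3.46 to 17.96), and CFI, at 0 to 4 counts a library, could not be tested.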

Other observations

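The complement genes of the major histocompatibility complex on chromosome 6 were almost without counts, and so were most of their neighbours. From 29723434 to 33314078, 106 of 137 coding genes (77.4%) stayed under 1 CPM in every library, against 37.9% of 19139 coding genes elsewhere. C2, CFB, C4A and C4B lie in that region. HLA-C, from the same region, had 430.3 and 455 CPM in senescent cells with doxycycline and 656 and 726 CPM in senescent cells without it. It had 206 and 199 CPM in proliferating cells with doxycycline and 231 and 236 CPM in those without. The cause of the low counts in this region was not tested, and no source used here gives the alignment settings.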
